A study of Homo sapiens with 16 samples.

Results

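Homologous recombination and the Fanconi anaemia pathway were described here through 35 genes, taken by their symbol from the 60664 genes of a count table of THP-1 macrophages. All 35 symbols were found, and all 35 were among the 15301 genes with enough counts to be tested. They comprise 5 damage kinases and checkpoint adaptors, 6 genes of break recognition and end resection, 5 of the BRCA complexes, 7 recombinase paralogs and strand-exchange cofactors, 9 of the Fanconi core complex with its ubiquitin-conjugating enzyme, the 2 genes of the FANCI-FANCD2 (ID) complex, and the mismatch recognition gene MSH6.

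Homologous recombination repairs a DNA double-strand break by copying from an intact sister chromatid, so it works mainly in cells that have replicated their DNA. The MRE11-RAD50-NBN complex finds the break, nucleases trim its ends to single strands, and BRCA1, PALB2 and BRCA2 load the recombinase that searches for the matching sequence. The Fanconi anaemia core complex attaches ubiquitin to FANCD2 and FANCI where a crosslink blocks a replication fork, and later steps of that repair use recombination. Many genes of both pathways are known to be transcribed most in late G1 and S phase, under E2F factors, and macrophages that have left the cell cycle are known to hold low levels of many of them.

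The study had 4 groups of 4 libraries, all of wild-type THP-1, a human monocytic leukaemia line, and all treated with the phorbol ester PMA at 100 ng/mL over 48 hours, which turns them into unpolarized (M0) macrophages. M0+LPS+IFN-γ+iMSCs macrophages then received Porphyromonas gingivalis lipopolysaccharide (LPS) at 100 ng/mL and interferon-γ (IFN-γ) at 20 ng/mL for 48 hours, with mesenchymal stem cells made from induced pluripotent stem cells (iMSCs) in the upper chamber of a Transwell insert. M0+LPS+IFN-γ macrophages received LPS and IFN-γ without iMSCs for 48 hours. M0+iMSCs macrophages shared the wells with iMSCs alone for 48 hours, and M0 macrophages had neither. No treatment time is given for M0, so a difference in culture time cannot be told apart in the comparisons with M0. The insert separates the cells and lets soluble factors pass, THP-1 is a single tumour line, and the names of the count columns for co-culture carry the letters CM, left unexplained by the labels. Whether the replicates were separate cultures is not stated, and the p-values reflect only how far these libraries differ, which may be technical.

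Libraries held 17336637 to 24368753 counts. Levels are CPM, counts scaled to a common library size, after TMM scaling, a scaling that sets most genes level between libraries. Summed over the 8 macrophage markers, levels ran from 4201 to 4382 CPM in M0+LPS+IFN-γ+iMSCs, 2417 to 4486 in M0+LPS+IFN-γ, 1382 to 1459 in M0+iMSCs and 1368 to 1474 in M0. In M0+LPS+IFN-γ replicates 1 to 3 held 2417 to 2453 CPM, and replicate 4 alone held 4486. CD68 was the exception at 0.0974 ± 0.0452, 0.280 ± 0.0822, 0.131 ± 0.0839 and 0.202 ± 0.101 CPM in the same order, and another annotated gene overlaps it on its strand over 2534 bases. Of the 13 mesenchymal markers 10 were tested, and the sums over the 13 were 464 to 490.0 CPM in M0+LPS+IFN-γ+iMSCs, 1065 to 1154 in M0+LPS+IFN-γ, 720 to 887 in M0+iMSCs and 1470 to 1512 in M0. With iMSCs 4 of the 10 rose and 3 fell under LPS and IFN-γ (median log2 change 0.26), and 5 rose and 2 fell at rest (median 1.05). Over all genes 38.4% rose and 36.3% fell, and 36.2% and 33.6% at rest. At least 2-fold higher were 3 of the 10 and lower 2 under LPS and IFN-γ, and 4 and 2 at rest. Of all 15301 genes 2920 and 2283 were, and 2622 and 1451 at rest. The markers thus went both ways, and only some are named here. COL1A2 had 0 counts in both co-culture groups and THY1 had 2 counts in each, whereas the matrix gene DCN had 18.8 ± 2.02 CPM in M0+LPS+IFN-γ+iMSCs, against 0.0662 ± 0.0779 in M0+LPS+IFN-γ and 0.787 ± 0.398 in M0+iMSCs, with 0 counts in M0. No library of iMSCs was analysed here, and the part of the DCN signal in the results was not tested. Replicate 4 of M0+LPS+IFN-γ stood apart from its group over all genes, with counts that differed from those of the other 3 by a chi-square of 152 to 168 per degree of freedom, where the other pairs of that group had 2.8 to 4.56.

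The promoters of the members are shown first, because many genes of these pathways are known E2F targets and because most members moved together with iMSCs. RefSeq sequences on GRCh38.p14, from 250 bases before to 50 bases after the annotated start, matched 31 of the 35 members by symbol or identifier. An E2F word, any of TTTCCCGC, TTTGGCGC, TTTCGCGC and TTTGCCGC on either strand, lay in 7 of these 31 promoters (22.6%), and in 901 of the 27274 other promoters (3.3%). The 7 members were TOPBP1, EXO1, XRCC2, FANCA, FANCC, FANCD2 and MSH6. The stretches below run from 70 bases before to 30 bases after the start of the 6 members whose word lies there, 5′ to 3′ on the gene's strand, with the word or its reverse complement in capitals. They are at chr3:133661912-133662011 (minus strand, TOPBP1), chr1:241848134-241848233 (plus, EXO1), chr7:152676112-152676211 (minus, XRCC2), chr9:95317680-95317779 (minus, FANCC), chr3:10026367-10026466 (plus, FANCD2) and chr2:47783075-47783174 (plus, MSH6).
TOPBP1: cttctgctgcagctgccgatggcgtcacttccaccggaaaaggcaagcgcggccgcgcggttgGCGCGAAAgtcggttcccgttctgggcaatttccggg
EXO1: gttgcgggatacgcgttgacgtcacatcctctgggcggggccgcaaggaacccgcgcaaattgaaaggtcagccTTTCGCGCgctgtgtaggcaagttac
XRCC2: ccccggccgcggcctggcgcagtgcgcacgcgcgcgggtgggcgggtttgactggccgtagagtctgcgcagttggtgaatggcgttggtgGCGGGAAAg
FANCC: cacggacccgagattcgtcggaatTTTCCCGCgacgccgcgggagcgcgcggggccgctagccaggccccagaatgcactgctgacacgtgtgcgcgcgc
FANCD2: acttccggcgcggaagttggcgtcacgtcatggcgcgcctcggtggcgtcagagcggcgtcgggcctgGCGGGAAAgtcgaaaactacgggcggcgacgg
MSH6: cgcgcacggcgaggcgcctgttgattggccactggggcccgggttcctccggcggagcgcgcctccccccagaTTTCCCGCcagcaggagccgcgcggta

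These words stood beside very different responses to iMSCs under LPS and IFN-γ, on the log2 scale: 5.10 for EXO1, 4.45 for XRCC2, 1.81 for FANCD2, 1.60 for MSH6, 1.43 for FANCA, 0.61 for TOPBP1 and 0.30 for FANCC. The median was 1.60 for the 7 members with a word and 1.38 for the 24 without one. Other starts of a gene were not searched. BRCA1, counted among the 24, was searched only at chr17:43170278-43170577. The split and the share of members with a word therefore hold for these windows only. The cell cycle word TTTGAA, on either strand, lay in 4 of 31 member promoters (12.9%) and in 15.4% of the others. The word CCAAT, bound by NF-Y and also searched on both strands, lay in 15 of 31 (48.4%) and in 35.7% of the others, with a median response of 1.86 in the 15 and 1.34 in the 16 without it. A match describes letters in this window, and these counts were not tested.

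RAD54L, BRIP1 and RAD51AP1 are shown because their responses were the largest among matched members that hold none of the listed E2F words and hold CCAAT there. Sites that depart from those words by a base were not counted. The stretch of RAD54L holds ATTCCCGC and that of RAD51AP1 its reverse complement GCGGGAAT, which differ from TTTCCCGC in its first base. They have CCAAT or its reverse complement ATTGG (capitals) in the 150 bases before their start, once in RAD54L and RAD51AP1 and 3 times in BRIP1. The stretches are at chr1:46247538-46247687 (plus strand, RAD54L), chr17:61863529-61863678 (minus, BRIP1) and chr12:4538740-4538889 (plus, RAD51AP1).
RAD54L: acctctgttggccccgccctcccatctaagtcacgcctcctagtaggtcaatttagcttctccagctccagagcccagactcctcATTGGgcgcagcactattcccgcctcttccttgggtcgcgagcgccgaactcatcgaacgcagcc
BRIP1: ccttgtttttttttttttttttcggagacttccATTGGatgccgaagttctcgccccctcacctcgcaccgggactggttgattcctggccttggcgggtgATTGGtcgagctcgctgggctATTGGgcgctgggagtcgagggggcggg
RAD51AP1: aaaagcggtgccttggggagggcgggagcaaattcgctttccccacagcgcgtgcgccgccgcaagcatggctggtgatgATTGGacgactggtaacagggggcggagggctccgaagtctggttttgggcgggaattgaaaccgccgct

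Together the 35 genes were higher in macrophages with iMSCs than in those without. Their summed level after TMM scaling was 897, 910.3, 863 and 704 CPM in replicates 1 to 4 of M0+LPS+IFN-γ+iMSCs, against 433 to 454 CPM in M0+LPS+IFN-γ. It was 657, 696, 635 and 600.0 CPM in M0+iMSCs, against 432 to 444 CPM in M0. All 8 co-culture libraries thus lay above all 8 libraries without iMSCs, and the group means were 844 ± 95.1 CPM in M0+LPS+IFN-γ+iMSCs, 443 ± 11.0 in M0+LPS+IFN-γ, 647 ± 40.2 in M0+iMSCs and 436 ± 5.29 in M0 (SD, n = 4 each). Between the groups without iMSCs the order depended on the scaling: as CPM of the library totals, with no TMM scaling, the members summed to 358 to 368 in M0+LPS+IFN-γ, against 423 to 438 in M0, with no overlap. On that scale they summed to 795 to 1048 in M0+LPS+IFN-γ+iMSCs and 651 to 744 in M0+iMSCs. The 10 markers of proliferating cells, among them MKI67, TOP2A and PCNA, moved beside them: their sums were 565, 633, 578 and 361 CPM in M0+LPS+IFN-γ+iMSCs, against 52.2 to 59.9 CPM in M0+LPS+IFN-γ. The marker sums were 293, 337, 193 and 178 CPM in M0+iMSCs, against 59.6 to 65.4 CPM in M0. Replicate 4 of M0+LPS+IFN-γ+iMSCs and replicates 3 and 4 of M0+iMSCs were the low ones of their groups in both sums. The part of proliferating cells in the results on the repair genes was not tested, and in bulk RNA fewer cells with a transcript and less of it per cell cannot be told apart.

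**Figure D1:**
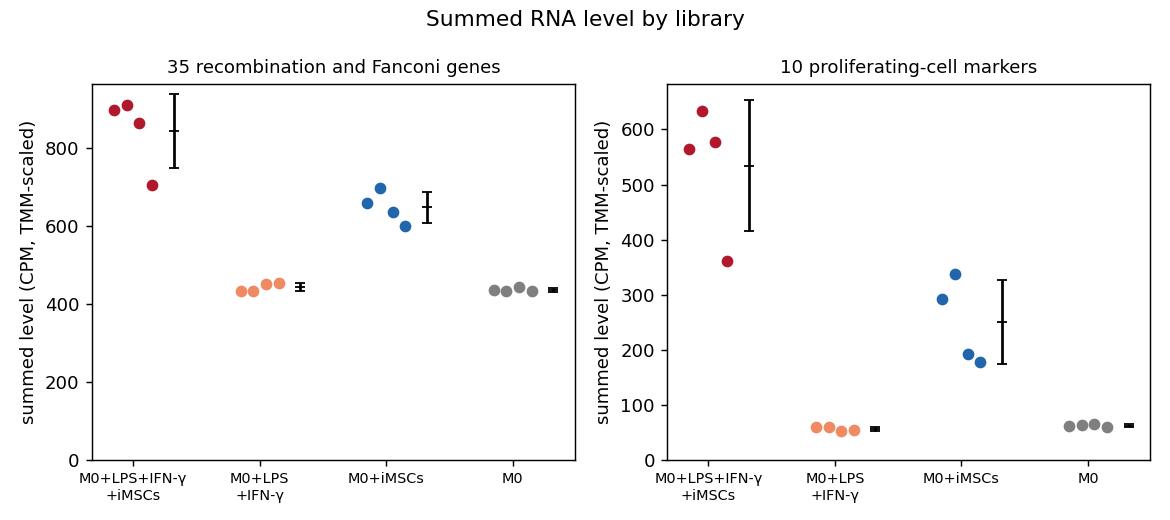
Summed level (CPM after TMM scaling) of the 35 recombination and Fanconi genes (left) and of 10 proliferating-cell markers (right), 1 point per library, with mean ± SD at the right of each group (n = 4). In both panels all 8 libraries with iMSCs lie above all 8 without, and replicate 4 is the lowest of M0+LPS+IFN-γ+iMSCs, at 704 CPM for the repair genes and 361 CPM for the markers.

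The main comparison asks how iMSCs changed these genes in macrophages under LPS and IFN-γ. Nearly the whole set was higher in M0+LPS+IFN-γ+iMSCs than in M0+LPS+IFN-γ: 31 of 35 members (88.6%) rose and 2, NBN and PALB2, fell at an adjusted p under 0.05 (edgeR quasi-likelihood test, adjusted over all genes tested), where 38.4% of all genes rose and 36.3% fell. The median log2 fold change of the members was 1.5, against 0.03 over all genes tested. At least 2-fold higher were 25 of the 35 members, where 2920 of all 15301 genes were called so. The libraries of both groups did not overlap in 30 members that were higher and 2 that were lower, where this held for 34.2% and 31.8% of all genes. RAD50 (0.12, adjusted p = 0.652) and FANCC (0.30, adjusted p = 0.053) were not called. FANCC was called without M0+LPS+IFN-γ replicate 2 or 3 or without M0+LPS+IFN-γ+iMSCs replicate 4, at 0.34, 0.39 and 0.37, so that 31 to 32 members rose when any 1 library was left out. Scaled by library totals alone 33 members rose and 1 fell, while 9020 of all genes rose and 3066 fell, against 5876 and 5555 with TMM.

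At rest, that is without LPS and IFN-γ, fewer members were called with iMSCs and their median change was smaller. M0+iMSCs macrophages had 22 of 35 members higher than M0 macrophages (62.9%) and 4 lower, RAD50, FANCC, PALB2 and TOPBP1, where 36.2% of all genes rose and 33.6% fell. The members' median was 0.52, against 0.03 over all genes, and libraries did not overlap in 20 members that were higher and 4 that were lower (35.7% and 33.3% of all genes). Of the 22 members that rose at rest 21 also rose under LPS and IFN-γ, which is 95.5% of the 22 and 67.7% of the 31. As 31 of all 35 members (88.6%) rose under LPS and IFN-γ, most of that count follows from the number of calls; over all genes, 57.6% of those that rose at rest also rose under LPS and IFN-γ. The 2 comparisons share no library, and NBN was the exception. This count rested partly on the split within M0+iMSCs: without replicates 1 and 2, 18 members rose and 7 fell, and without replicates 3 and 4, 24 rose and 3 fell. XRCC3 (adjusted p = 0.0484), FANCA and RAD51C were the calls that single libraries decided: XRCC3 lost it without any 1 of 11 libraries (M0+LPS+IFN-γ+iMSCs replicates 1 and 3, M0+LPS+IFN-γ replicates 1, 2 and 3, M0+iMSCs replicates 1, 2 and 4, M0 replicates 2, 3 and 4; adjusted p = 0.0545 to 0.141), FANCA and RAD51C each without M0 replicate 1 (adjusted p = 0.0745 and 0.0798) or M0+iMSCs replicate 2 (adjusted p = 0.06 and 0.079).

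**Figure D2:**
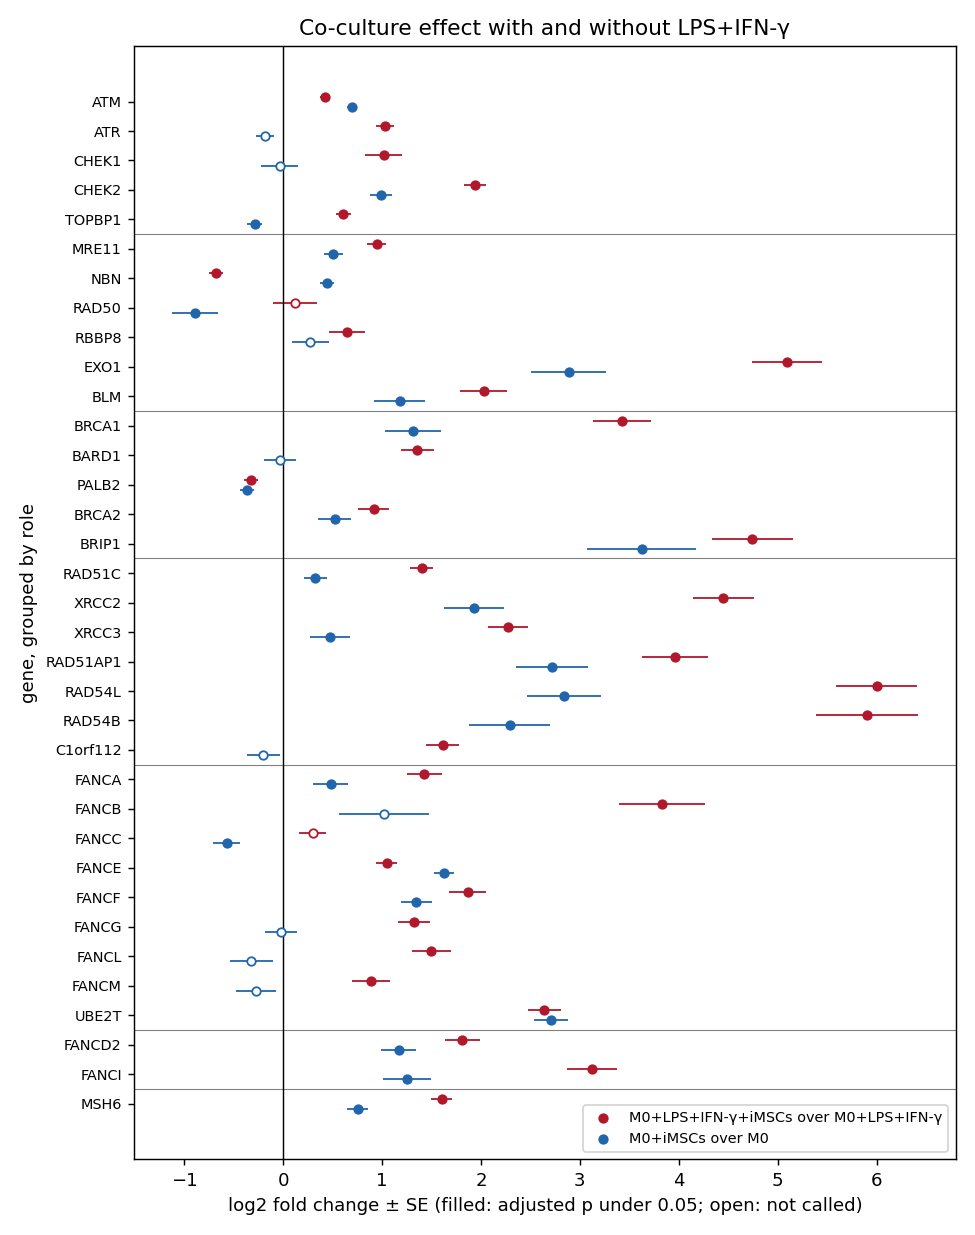
Log2 fold change ± SE of each gene for iMSCs under LPS and IFN-γ (red) and at rest (blue), grouped by role, with filled points at an adjusted p under 0.05 (edgeR) and open points not called. RAD54L, RAD54B and EXO1 lie farthest right under LPS and IFN-γ, at 6.00, 5.90 and 5.10, and NBN and TOPBP1 are the genes with filled points on opposite sides of 0.

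Among the damage kinases and their partners, all 5 rose with iMSCs under LPS and IFN-γ and 2 rose at rest. CHEK2, a kinase that ATM activates, showed the widest gap between group means (ENSG00000183765, chromosome 22, 28687743 to 28742422 on GRCh38.p13). CHEK2 had 11.3, 11.0, 11.3 and 10.6 CPM in M0+LPS+IFN-γ+iMSCs, against 2.63, 2.85, 2.46 and 3.63 CPM in M0+LPS+IFN-γ. In M0+iMSCs it had 12.3, 9.71, 11.7 and 11.3 CPM, against 5.38, 6.31, 5.75 and 5.23 CPM in M0. Neither pair of groups overlapped, and both co-culture groups sat near the same level: CHEK2 rose by 1.94 ± 0.12 (adjusted p = 8.68e-11) under LPS and IFN-γ and by 0.99 ± 0.11 (adjusted p = 2.68e-07) at rest (log2 ± SE). CHEK1, the kinase downstream of ATR, had 28.1, 33.6, 28.4 and 22 CPM in M0+LPS+IFN-γ+iMSCs, against 16.8, 14.6, 15.9 and 8.13 in M0+LPS+IFN-γ. Its levels in M0+iMSCs (16.7, 18.4, 12.1 and 13.7 CPM) and M0 (14.9, 15.6, 15.1 and 16.5 CPM) overlapped, and its change was 1.02 ± 0.19 (adjusted p = 0.000134) under LPS and IFN-γ and -0.03 ± 0.19 (adjusted p = 0.886) at rest. Replicate 4 of M0+LPS+IFN-γ was the lowest CHEK1 library of all 16.

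TOPBP1, which activates ATR, moved in opposite directions. It had 83.4, 84.8, 78.3 and 64.5 CPM in M0+LPS+IFN-γ+iMSCs, against 48.9, 50, 52.6 and 52.7 in M0+LPS+IFN-γ, and 43.6, 48.1, 41.0 and 40.4 CPM in M0+iMSCs, against 53.4, 52.1, 52.5 and 53.1 in M0. It rose by 0.61 ± 0.07 (adjusted p = 1e-06) in the first pair and fell by 0.29 ± 0.08 in the second (adjusted p = 0.0026), with no overlap in either; scaling by library totals alone gave -0.15 at rest (adjusted p = 0.0838). ATR itself rose by 1.03 ± 0.09 (adjusted p = 1.55e-08) under LPS and IFN-γ and stood at -0.18 at rest (adjusted p = 0.0813), where it passed as a fall of 0.25 without M0+iMSCs replicate 2 and of 0.19 without M0+LPS+IFN-γ replicate 4 or M0+LPS+IFN-γ+iMSCs replicate 1 or 4. ATM, the kinase of double-strand breaks, was the most abundant member by CPM: 146, 132, 136 and 142 in M0+LPS+IFN-γ+iMSCs, against 102, 105, 108 and 100.2 in M0+LPS+IFN-γ, and 159, 172, 177 and 158 in M0+iMSCs, against 105, 102, 105 and 100.1 in M0. It rose by 0.42 ± 0.05 (adjusted p = 4.86e-07) and by 0.69 ± 0.05 (adjusted p = 1.44e-09), and it was 1 of 4 members highest in M0+iMSCs, where its libraries lay apart from all others.

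End resection genes split between a few that rose steeply and a break sensor that moved the other way. EXO1, a long-range resection nuclease (ENSG00000174371, chromosome 1, 241847967 to 241895148), carries an E2F word just after its start. EXO1 had 25.7, 28.5, 28.5 and 13.8 CPM in M0+LPS+IFN-γ+iMSCs, against 0.628, 0.571, 0.853 and 0.749 CPM in M0+LPS+IFN-γ. With iMSCs alone (M0+iMSCs) it had 6.36, 6.8, 3.53 and 2.55 CPM, against 0.548, 0.751, 0.629 and 0.629 CPM in M0. Every co-culture library lay above every other library, and EXO1 rose by 5.10 ± 0.35 (adjusted p = 2.55e-09) under LPS and IFN-γ and by 2.88 ± 0.38 (adjusted p = 5.53e-06) at rest. BLM, a helicase of resection and of joint-molecule removal, had 14.3, 15.4, 14.6 and 9.19 CPM in M0+LPS+IFN-γ+iMSCs, against 3.08, 3.06, 3.21 and 3.80 in M0+LPS+IFN-γ. Its M0+iMSCs libraries had 5.56, 8.09, 3.83 and 3.06 CPM, against 2.39, 2.20, 2.14 and 2.23 in M0, and it rose by 2.03 ± 0.24 and 1.18 ± 0.25 in these pairs, which did not overlap. RBBP8, which encodes the resection factor CtIP, rose by 0.64 ± 0.18 (adjusted p = 0.00472) under LPS and IFN-γ, where its libraries overlapped, and at rest it was not called (called without M0+iMSCs replicate 4, at 0.42, and without replicates 3 and 4, at 0.61). MRE11 rose by 0.95 ± 0.10 under LPS and IFN-γ and by 0.51 ± 0.10 at rest.

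NBN, the adaptor subunit of the MRE11-RAD50-NBN complex (ENSG00000104320), was the only member highest in M0+LPS+IFN-γ. NBN had 59.2, 56.7, 54.5 and 50.9 CPM in M0+LPS+IFN-γ+iMSCs, against 81.7, 85.3, 87.9 and 100.2 CPM in M0+LPS+IFN-γ. At rest the gene had, in M0+iMSCs, 61.2, 66.8, 56.6 and 58.0 CPM, against 42.5, 43.7, 45.9 and 45.9 CPM in M0. Neither pair overlapped: NBN fell by 0.68 ± 0.07 with iMSCs under LPS and IFN-γ (adjusted p = 8.3e-08) and rose by 0.45 ± 0.07 (adjusted p = 1.98e-05) with iMSCs at rest. RAD50, the third subunit, held few counts: 1.42, 1.02, 0.751 and 0.827 CPM in M0+LPS+IFN-γ+iMSCs, against 1.08, 0.830, 0.903 and 0.865 in M0+LPS+IFN-γ, and 0.421, 0.701, 0.560 and 0.503 in M0+iMSCs, against 1.10, 0.851, 1.01 and 1.06 in M0. It fell by 0.89 ± 0.23 at rest (adjusted p = 0.00263). A second gene annotated on the same strand overlaps RAD50 over 90061 bases and has 0 counts, so the level of RAD50 is uncertain.

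In the BRCA complexes 4 of 5 members rose under LPS and IFN-γ, and PALB2 fell, where 38.4% of all genes rose and 36.3% fell. BRIP1, the helicase bound to BRCA1 (ENSG00000136492, chromosome 17, 61679139 to 61863559), was barely detected without iMSCs. BRIP1 had 9.56, 9.27, 8.59 and 4.91 CPM in M0+LPS+IFN-γ+iMSCs, against 0.228, 0.208, 0.351 and 0.404 CPM in M0+LPS+IFN-γ. In M0+iMSCs it had 1.81, 3.18, 1.21 and 0.696 CPM, against 0.149, 0.10, 0.126 and 0.145 CPM in M0. The groups lay apart in both pairs, and BRIP1 rose by 4.74 ± 0.41 (adjusted p = 1.86e-08) and by 3.62 ± 0.55 (adjusted p = 1.79e-05). BRCA1, the ubiquitin ligase that directs repair to recombination, had 51.3, 52.6, 47.0 and 26.9 CPM in M0+LPS+IFN-γ+iMSCs, against 4.97, 3.22, 3.56 and 4.84 CPM in M0+LPS+IFN-γ. With iMSCs alone (M0+iMSCs) it had 14.8, 18.3, 9.47 and 7.27 CPM, against 5.08, 4.86, 5.12 and 4.89 CPM in M0. It rose by 3.43 ± 0.29 (adjusted p = 6.11e-08) and by 1.31 ± 0.28 (adjusted p = 0.000838), again with no overlap, whereas its partner BARD1 rose by 1.36 ± 0.16 under LPS and IFN-γ and stood at -0.03 at rest (adjusted p = 0.865).

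PALB2, the bridge between BRCA1 and BRCA2, went against its partners: 17.4, 18.9, 17.8 and 17.8 CPM in M0+LPS+IFN-γ+iMSCs, against 23.8, 22.1, 22.2 and 22 in M0+LPS+IFN-γ, and 20.2, 19.6, 18.6 and 16.5 CPM in M0+iMSCs, against 24.7, 25.1, 25.0 and 21.5 in M0. It fell by 0.33 ± 0.07 (adjusted p = 0.000515) and 0.36 ± 0.07 (adjusted p = 0.000203), without overlap in either pair. The first fall depended on the scaling, since library totals alone, which moved the median of all genes by 0.47, gave 0.15 (adjusted p = 0.0807). BRCA2, which loads the recombinase, had 38.2, 29.4, 29.0 and 33.7 CPM in M0+LPS+IFN-γ+iMSCs, against 14.6, 14.5, 18.6 and 21.4 in M0+LPS+IFN-γ, and 13.0, 13.4, 12.6 and 7.78 CPM in M0+iMSCs, against 9.06, 7.36, 7.93 and 8.04 in M0. It rose by 0.92 ± 0.16 (adjusted p = 5.55e-05) and by 0.52 ± 0.17 (adjusted p = 0.0108), and replicate 4 of M0+iMSCs, at 7.78 CPM, overlapped with M0.

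The recombinase paralogs and strand-exchange cofactors moved together: all 7 rose at least 2-fold under LPS and IFN-γ with no overlap, and 6 rose at rest. Over all 15301 genes, 2920 were called at least 2-fold higher with iMSCs under LPS and IFN-γ. There 34.2% of all genes were higher without overlap, and at rest 36.2% of all genes rose. RAD54L, a motor protein that remodels the recombinase filament (ENSG00000085999, chromosome 1, 46246461 to 46278480), had the largest log2 estimate of all members under LPS and IFN-γ. It held only 13 counts over the M0+LPS+IFN-γ libraries, and RAD54B stood close at 5.90 ± 0.52, so their order is uncertain. RAD54L had 12.0, 13.4, 12.8 and 8.22 CPM in M0+LPS+IFN-γ+iMSCs, against 0.171, 0.311, 0.10 and 0.115 CPM in M0+LPS+IFN-γ. Its M0+iMSCs libraries had 5.18, 3.56, 2.33 and 1.70 CPM, against 0.647, 0.451, 0.294 and 0.387 CPM in M0. Its libraries did not overlap in either pair, and it rose by 6.00 ± 0.41 (adjusted p = 9.23e-10) and by 2.84 ± 0.38 (adjusted p = 4.24e-06). XRCC2, a recombinase paralog with an E2F word shortly after its start, had 6.85, 7.51, 7.02 and 3.84 CPM in M0+LPS+IFN-γ+iMSCs, against 0.286, 0.259, 0.201 and 0.404 in M0+LPS+IFN-γ. At rest the gene had, in M0+iMSCs, 2.57, 2.32, 1.59 and 1.24 CPM, against 0.598, 0.401, 0.461 and 0.532 in M0, and it rose by 4.45 ± 0.31 and 1.93 ± 0.30. RAD51AP1, which promotes strand invasion, rose by 3.96 ± 0.34 and 2.72 ± 0.37, and RAD54B, a relative of RAD54L, held 184 counts over the 4 M0+LPS+IFN-γ+iMSCs libraries, against 2 counts in M0+LPS+IFN-γ, a ratio of 72.9 (95% counting interval 19.9 to 606). XRCC3, RAD51C and C1orf112, whose product acts with FIGNL1 on recombinase filaments, rose by 2.27, 1.40 and 1.61 under LPS and IFN-γ, against 0.47, 0.33 and -0.20 at rest, where C1orf112 was not called.

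In the Fanconi core complex 8 of 9 members rose under LPS and IFN-γ, FANCC was not called, and 4 rose and 1 fell at rest. Over all genes 38.4% rose under LPS and IFN-γ, and 36.2% rose and 33.6% fell at rest. The share of the core that rose at rest (44.4%) lay close to that of all genes. UBE2T, the conjugating enzyme that hands ubiquitin to the FANCL ligase (ENSG00000077152, chromosome 1, 202331657 to 202341980), had a similar log2 change with iMSCs in both states. UBE2T had 16.0, 20.0, 18.8 and 12.2 CPM in M0+LPS+IFN-γ+iMSCs, against 2.68, 3.01, 2.61 and 2.42 CPM in M0+LPS+IFN-γ. In M0+iMSCs it had 14.9, 14.1, 10.9 and 10.1 CPM, against 1.84, 2.00, 1.68 and 2.13 CPM in M0. UBE2T rose by 2.64 ± 0.17 (adjusted p = 1.93e-10) and by 2.71 ± 0.17 (adjusted p = 4.45e-10), with no overlap. FANCB, a core subunit, held few counts, at 3.35, 2.69, 2.40 and 1.85 CPM in M0+LPS+IFN-γ+iMSCs, against 0.343, 0.259, 0.10 and 0 in M0+LPS+IFN-γ. With iMSCs alone (M0+iMSCs) it had 0.589, 1.02, 0.689 and 0.387 CPM, against 0.249, 0.250, 0.210 and 0.581 in M0, where replicate 4 was the highest, and it rose by 3.83 ± 0.43 (adjusted p = 3.31e-07) in the first pair but not in the second (1.02, adjusted p = 0.0543; 1.45, adjusted p = 0.018 without M0 replicate 4). FANCB was also called at rest without M0+iMSCs replicate 4 (adjusted p = 0.0277) or M0+LPS+IFN-γ replicate 4 (adjusted p = 0.0254).

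FANCE, the core subunit that holds FANCD2 (ENSG00000112039, chromosome 6, 35452338 to 35467102), followed a pattern of its own, highest in M0+iMSCs. FANCE had 24.7, 23.5, 23.8 and 27.5 CPM in M0+LPS+IFN-γ+iMSCs, against 14.0, 12.2, 11.3 and 10.5 CPM in M0+LPS+IFN-γ. Its M0+iMSCs libraries had 81.2, 75.0, 99.7 and 103 CPM, against 30.6, 28.4, 28.7 and 29.0 CPM in M0. All 4 groups lay apart from each other, and FANCE rose by 1.05 ± 0.11 (adjusted p = 7.4e-08) and by 1.62 ± 0.10 (adjusted p = 2.58e-10). FANCF, which joins subunits of the core, was also highest in M0+iMSCs: 2.62, 2.74, 2.44 and 2.29 CPM in M0+LPS+IFN-γ+iMSCs, against 0.571, 0.571, 0.803 and 0.807 in M0+LPS+IFN-γ, and 4.13, 3.02, 3.01 and 3.33 in M0+iMSCs, against 1.44, 1.10, 1.22 and 1.55 in M0. It rose by 1.86 ± 0.18 and 1.35 ± 0.16. FANCC had 12.4, 12.2, 10.8 and 9.48 CPM in M0+LPS+IFN-γ+iMSCs, against 9.37, 9.96, 10.9 and 6.17 in M0+LPS+IFN-γ, and 5.89, 6.37, 5.43 and 5.22 CPM in M0+iMSCs, against 8.32, 8.66, 8.64 and 8.37 in M0. It fell by 0.57 ± 0.14 at rest (adjusted p = 0.00149), without overlap. FANCA, FANCG, FANCL and the fork-binding motor FANCM rose by 1.43, 1.32, 1.5 and 0.89 under LPS and IFN-γ, and stood at 0.48, -0.03, -0.32 and -0.28 at rest, where FANCA alone of the 4 was called and FANCM passed as a fall of 0.47 without M0+iMSCs replicate 2 (adjusted p = 0.0368).

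Both subunits of the ID complex, the pair to which the core attaches ubiquitin, rose in both states. FANCI (ENSG00000140525, chromosome 15, 89243945 to 89317261) had 55.9, 64.5, 58.0 and 38.1 CPM in M0+LPS+IFN-γ+iMSCs, against 6.05, 5.81, 6.82 and 6.11 CPM in M0+LPS+IFN-γ. At rest the gene had, in M0+iMSCs, 21.3, 22.9, 10.9 and 10.6 CPM, against 6.07, 7.21, 7.72 and 6.44 CPM in M0. Replicates 1 and 2 of M0+iMSCs lay well above replicates 3 and 4 (ratio of means 2.05), and FANCI rose by 3.13 ± 0.25 (adjusted p = 2.88e-08) and by 1.25 ± 0.25 (adjusted p = 0.000357). FANCD2 had 29.6, 33.5, 31.2 and 22.1 CPM in M0+LPS+IFN-γ+iMSCs, against 7.99, 8.09, 7.28 and 9.86 CPM in M0+LPS+IFN-γ. In M0+iMSCs it had 15.2, 21.3, 11.5 and 12.3 CPM, against 6.82, 6.41, 7.25 and 6.15 CPM in M0, and it rose by 1.81 ± 0.17 and 1.17 ± 0.18 with no overlap. MSH6, a protein that recognises base mismatches, had 55.1, 62.1, 58.2 and 39.9 CPM in M0+LPS+IFN-γ+iMSCs, against 19.6, 17.7, 17.7 and 15.9 in M0+LPS+IFN-γ. With iMSCs alone (M0+iMSCs) it had 40, 41.8, 46.3 and 41.0 CPM, against 24, 24.9, 26.2 and 25.2 in M0, and it rose by 1.60 ± 0.11 (adjusted p = 3.88e-10) and by 0.75 ± 0.10 (adjusted p = 5.51e-06) with no overlap.

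**Figure D3:**
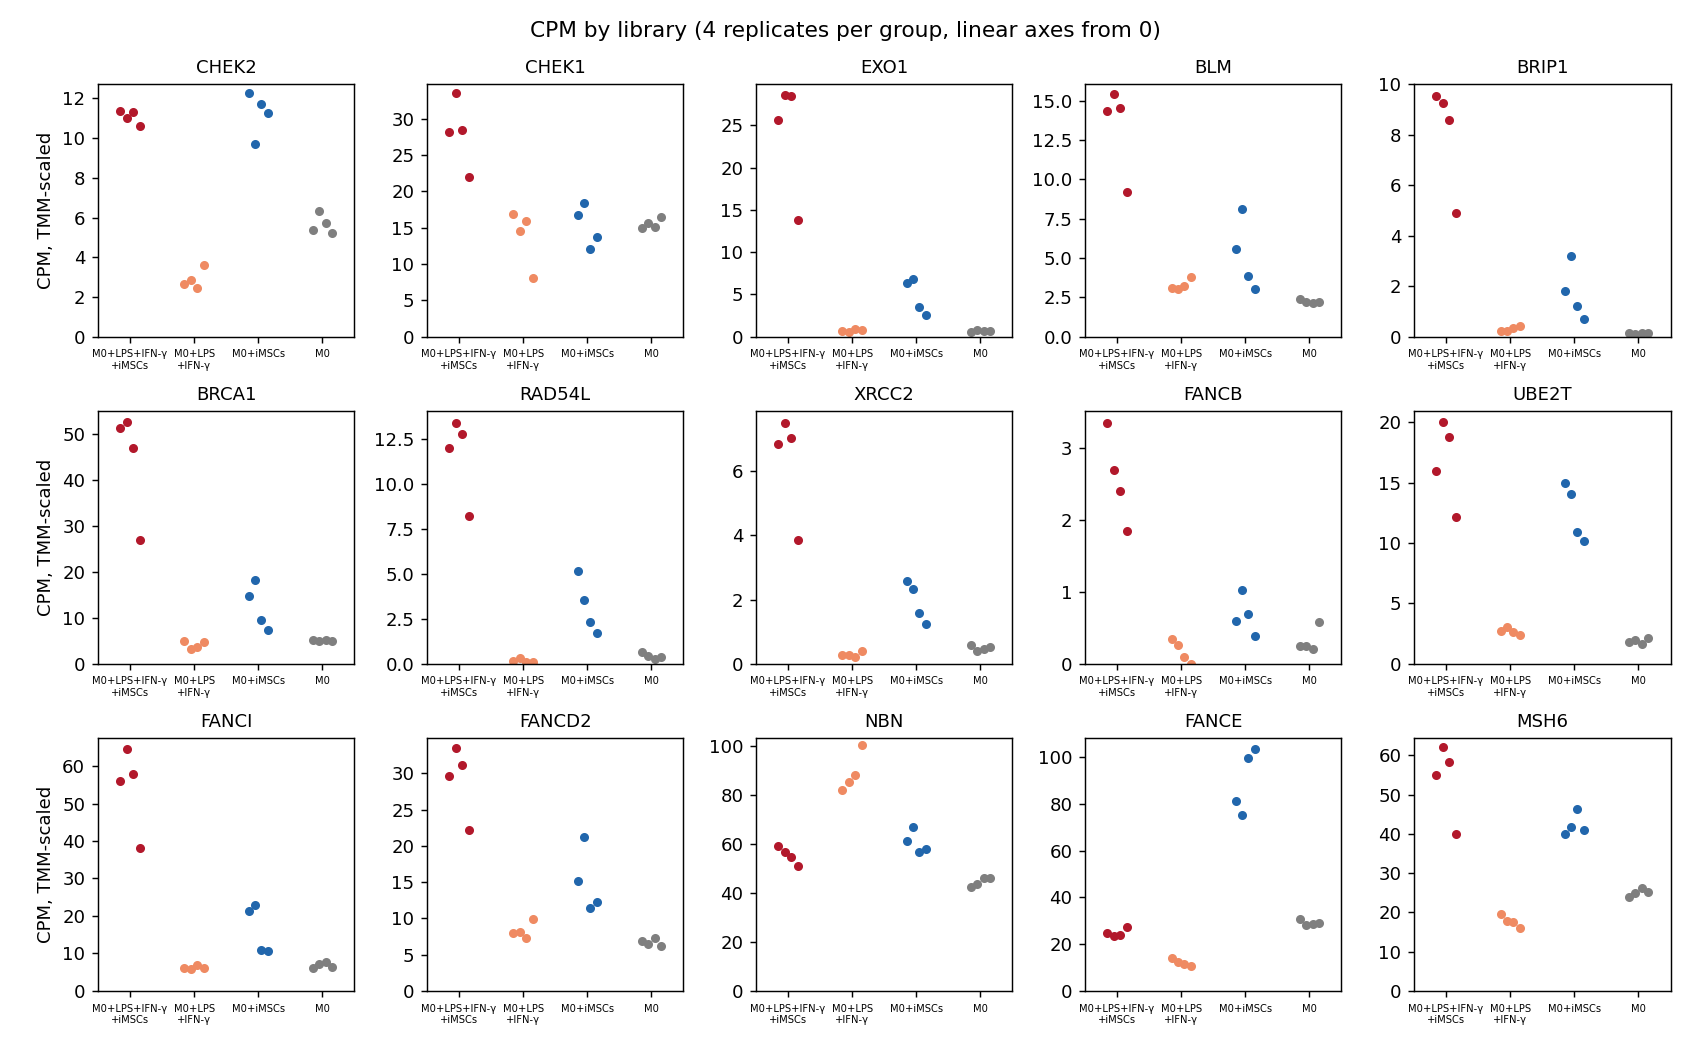
Level (CPM after TMM scaling, linear axes from 0) of 15 members in each library, in replicate order 1 to 4 from left to right within a group. EXO1, BRIP1, BRCA1 and FANCI are highest in M0+LPS+IFN-γ+iMSCs, NBN in M0+LPS+IFN-γ and FANCE in M0+iMSCs.

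Whether the co-culture effect differed with stimulation was tested as an interaction, the log2 effect of iMSCs under LPS and IFN-γ minus that at rest. In 25 of 35 members (71.4%) the effect was more positive under LPS and IFN-γ, and in 3 (ATM, NBN and FANCE) more negative, where 31.1% of all genes passed in each direction. The members' median difference was 1.05, against 0.02 over all genes; by library totals alone, which shifted the median of all genes by 0.33, 30 members passed upward and 1 downward. The largest were RAD54B at 3.61 ± 0.88, RAD54L at 3.16 ± 0.69, FANCB at 2.81 ± 0.69 and XRCC2 at 2.52 ± 0.49, followed by EXO1 at 2.21 ± 0.59 and BRCA1 at 2.12 ± 0.40. In M0+LPS+IFN-γ, RAD54B, RAD54L, FANCB and XRCC2 held only 2, 13, 13 and 21 counts over all libraries of the group. The size and order of their differences are therefore uncertain. ATR, CHEK1, BARD1, C1orf112, FANCG, FANCL and FANCM, which were not called at rest, differed by 1.21, 1.05, 1.39, 1.81, 1.35, 1.82 and 1.17. UBE2T, PALB2, RBBP8, BRCA2, FANCF, BRIP1 and RAD51AP1 were not called, at -0.07, 0.04, 0.37, 0.39, 0.52, 1.12 and 1.24, and for UBE2T the SE was 0.24. BLM (0.85, adjusted p = 0.0447) and FANCD2 (0.64, adjusted p = 0.032) lost the call without any 1 of 12 libraries for BLM (M0+LPS+IFN-γ+iMSCs replicates 1, 2 and 3, M0+LPS+IFN-γ replicates 1, 2 and 3, M0+iMSCs replicates 3 and 4, M0 replicates 1, 2, 3 and 4) and of 9 for FANCD2 (M0+LPS+IFN-γ+iMSCs replicates 2 and 3, M0+LPS+IFN-γ replicates 1, 2 and 3, M0+iMSCs replicates 3 and 4, M0 replicates 1 and 3), at adjusted p = 0.0599 to 0.0842 for BLM and 0.0513 to 0.0641 for FANCD2. FANCF was called without M0+iMSCs replicate 1 (0.63), and RAD51AP1 without M0 replicate 4, M0+iMSCs replicate 1 or 2, or M0+LPS+IFN-γ+iMSCs replicate 4 (1.37 to 1.45).

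LPS and IFN-γ alone, without iMSCs, left most of these genes without a call. In M0+LPS+IFN-γ 3 members (8.57%) were higher than in M0 and 10 (28.6%) lower, where 29.1% of all genes rose and 28.3% fell, so the share that fell lay close to that of all genes. The members' median was -0.16, against 0.01 over all genes, and libraries did not overlap in 6 members that were higher and 8 that were lower (25.9% and 26.3% of all genes). NBN rose by 1.0 ± 0.07 (adjusted p = 2.05e-09) and BRCA2 by 1.09 ± 0.17 (adjusted p = 3.31e-05), with the libraries given above lying apart in both. UBE2T stood at 0.49 (adjusted p = 0.043), a call lost without any 1 of 8 libraries (M0+LPS+IFN-γ+iMSCs replicate 1, M0+LPS+IFN-γ replicates 1, 2, 3 and 4, M0 replicates 1, 2 and 3; adjusted p = 0.0501 to 0.112). FANCE fell by 1.28 ± 0.11 (adjusted p = 1.6e-08), and the other falls that single libraries did not decide were those of CHEK2 (-0.97 ± 0.12), FANCF (-0.94 ± 0.20), C1orf112 (-0.55 ± 0.18), ATR (-0.52 ± 0.09) and MSH6 (-0.50 ± 0.11). RAD54B held 2 counts over the 4 M0+LPS+IFN-γ libraries, against 14 in M0, a ratio of 0.163 (95% counting interval 0.0180 to 0.710). Its call was lost without M0 replicate 3, M0+LPS+IFN-γ replicate 2 or M0+LPS+IFN-γ replicate 3 (adjusted p = 0.0573 to 0.0686), and that of FANCG (-0.47, adjusted p = 0.0262) without M0 replicate 4 (adjusted p = 0.0968) or M0+LPS+IFN-γ replicate 3 (adjusted p = 0.0796). BARD1 (-0.42, adjusted p = 0.0421) and RAD51C (-0.31, adjusted p = 0.0389) lost theirs without any 1 of 6 libraries each (M0+LPS+IFN-γ replicates 1, 2 and 3, M0 replicates 1, 2 and 4 for BARD1, at an adjusted p of up to 0.114; M0+LPS+IFN-γ replicates 1, 2 and 3, M0 replicates 2, 3 and 4 for RAD51C, at an adjusted p of up to 0.103). FANCA fell by 0.49 without M0+LPS+IFN-γ replicate 4 (adjusted p = 0.00305), and stood at -0.20 with it (adjusted p = 0.376). MRE11 was called as lower without M0 replicate 4 (-0.28) or M0+LPS+IFN-γ replicate 4 (-0.24), RAD54L as lower without M0+iMSCs replicate 1 (-1.30), FANCC as higher without M0+LPS+IFN-γ replicate 4 (0.25), and BLM as higher without M0+iMSCs replicate 2 or 4 (0.55). The number that fell ran between 6 without M0+LPS+IFN-γ replicate 3 and 12 without M0+LPS+IFN-γ replicate 4. Scaled by library totals alone, which shifted the median of all genes by -0.26, 2 members rose and 18 fell.

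Within co-culture the same stimulation moved most of the set upward. In M0+LPS+IFN-γ+iMSCs 29 members (82.9%) were higher than in M0+iMSCs and 3, FANCE, FANCF and ATM, lower, where 39.3% of all genes rose and 35.1% fell. The members' median was 0.96, against 0.05 over all genes, and libraries did not overlap in 25 that were higher and 3 that were lower (36.8% and 33.3% of all genes). EXO1, BRIP1, FANCB, RAD54L, BRCA1 and FANCL rose by 2.34, 2.28, 1.97, 1.87, 1.85 and 1.81, and FANCC and TOPBP1 by 0.97 and 0.85. FANCE fell by 1.85 ± 0.10 (adjusted p = 2.55e-11), FANCF by 0.42 ± 0.14 and ATM by 0.26 ± 0.05. CHEK2, NBN and PALB2 were not called, at -0.02, -0.13 and -0.06, and NBN passed as a fall of 0.13 without M0+LPS+IFN-γ replicate 4. Of the 10 members that fell with LPS and IFN-γ alone, 7 rose with it in co-culture (70% of the 10 and 24.1% of the 29), and FANCE and FANCF fell in both. As 82.9% of all members rose within co-culture, this 70% is no higher than the share of the whole set. The same overlap was not counted over all genes. The comparisons without iMSCs and within co-culture share no library. MRE11 (0.24), UBE2T (0.43) and FANCF were not called without some single libraries, which are M0+iMSCs replicates 3 and 4 and M0+LPS+IFN-γ+iMSCs replicates 1, 2 and 3 for MRE11 (adjusted p = 0.0551 to 0.0972), M0+iMSCs replicate 4 and M0+LPS+IFN-γ+iMSCs replicate 2 for UBE2T (adjusted p = 0.0522 and 0.0562), and M0+iMSCs replicate 1 for FANCF (adjusted p = 0.069).

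**Figure D4:**
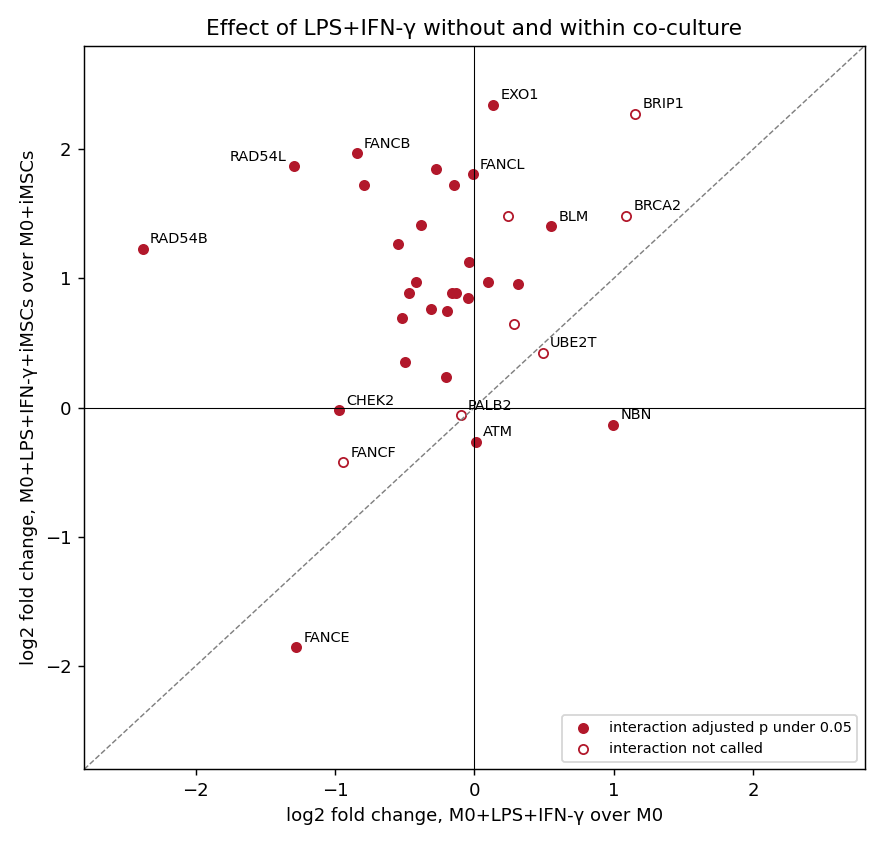
Log2 fold change of each of the 35 genes with LPS and IFN-γ, within co-culture (vertical) against without iMSCs (horizontal), with filled points where the interaction had an adjusted p under 0.05. Most points lie above the dashed line of equal change, and NBN, ATM and FANCE are the filled points below it.

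Across the 4 groups the highest mean lay in M0+LPS+IFN-γ+iMSCs for 29 of 35 members, in M0+iMSCs for 4 (ATM, CHEK2, FANCE and FANCF), in M0+LPS+IFN-γ for NBN and in M0 for PALB2. Over all tested genes it lay in these groups in 31.6%, 25.1%, 23.5% and 19.7%, in the same order. In 23 of the 29 all 4 libraries of the highest group lay above all 12 others (17.9% of all genes). The same held for 3 of the 4 highest in M0+iMSCs (13.8% of all genes) and for NBN (10.5%), and not for PALB2 (8.5%). The neighbours in that order were not separated for UBE2T, MSH6, MRE11, RBBP8, RAD50 and FANCC, whose highest group overlapped with another. The lowest mean lay in M0+LPS+IFN-γ for 19 members, in M0 for 10, in M0+iMSCs for 5 and in M0+LPS+IFN-γ+iMSCs for PALB2. Per kilobase of exon, the most abundant members in M0+LPS+IFN-γ+iMSCs were UBE2T, TOPBP1, MSH6, NBN and FANCI at 19.1 ± 3.98, 13.5 ± 1.61, 12.6 ± 2.28, 12.0 ± 0.761 and 11.4 ± 2.39 CPM per kilobase (mean ± SD, n = 4). In M0 they were FANCE, NBN, TOPBP1, ATM and PALB2 at 11.3 ± 0.376, 9.63 ± 0.361, 9.16 ± 0.0990, 7.97 ± 0.191 and 6.01 ± 0.433, whereas BRIP1, RAD54B, XRCC2 and FANCB were the lowest there at 0.0159 ± 0.00275, 0.0533 ± 0.0167, 0.104 ± 0.0179 and 0.107 ± 0.0574.

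Libraries of a co-culture group differed among themselves in the same direction for most members. Replicate 4 was the lowest of M0+LPS+IFN-γ+iMSCs in 30 of 35 members, with a median ratio of 1.37 between the mean of the other 3 and replicate 4. Replicates 1 and 2 of M0+iMSCs both lay above replicates 3 and 4 in 25 of 35, with a median ratio of 1.295 between the means of the pairs, and the ratio was 2.63 for BRIP1, 2.16 for EXO1 and 1.98 for BRCA1. FANCE ran the other way in both groups, at 0.769 for the pairs of M0+iMSCs and 0.871 for the first 3 libraries of M0+LPS+IFN-γ+iMSCs over replicate 4. The proliferation markers showed the same low libraries, as given above. These counts were not taken over all genes, where the same libraries stood apart too. Replicate 4 of M0+LPS+IFN-γ+iMSCs differed from the others by a chi-square of 15.85 to 17.5 per degree of freedom, against 2.89 to 7.33 among those. In M0+iMSCs it was 14.84 to 28.44 between the pairs, against 6.84 and 4.38 within them. Whether the shifts are particular to the members was not tested.

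**Figure D5:**
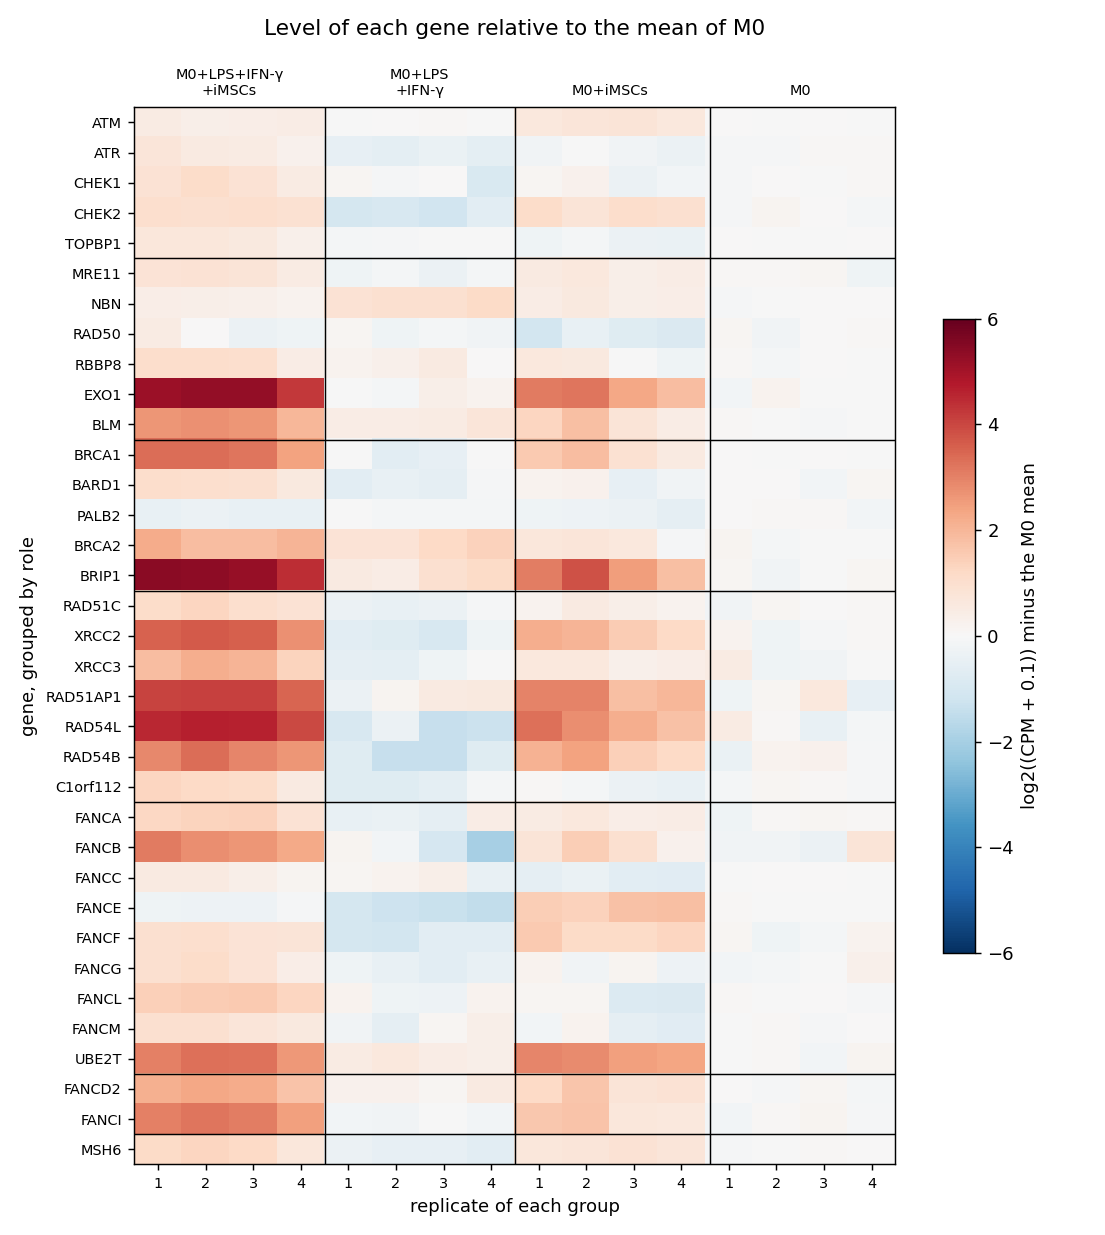
Level of each gene (rows, grouped by role) in each of the 16 libraries (columns), as log2 of CPM plus 0.1 minus the M0 mean. The first 3 columns, replicates 1 to 3 of M0+LPS+IFN-γ+iMSCs, are darker red than replicate 4 in most rows, and NBN is darkest in M0+LPS+IFN-γ and FANCE in M0+iMSCs.

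Genes of the same pathways outside the 35 moved in both directions. Of 56 tested genes among 58 other recombination and Fanconi genes, 32 rose and 12 fell with iMSCs under LPS and IFN-γ (median 0.30), and 23 rose and 18 fell at rest (median 0.17). These were 57.1% and 21.4%, and 41.1% and 32.1% at rest. Over all genes 38.4% rose and 36.3% fell under LPS and IFN-γ, and 36.2% and 33.6% at rest. The 3 with the smallest p under LPS and IFN-γ were POLQ, the polymerase of end joining at microhomology, at 6.62, and 2 that fell: ERCC1, a subunit of the crosslink nuclease with ERCC4, at -2.62, and the checkpoint clamp gene HUS1 at -1.10. ERCC1 had 25.6 ± 2.36 CPM in M0+LPS+IFN-γ+iMSCs, against 158 ± 29.8 in M0+LPS+IFN-γ, and 97.7 ± 5.37 CPM in M0+iMSCs, against 170.5 ± 3.70 in M0. With LPS and IFN-γ 35 of the 56 rose and 7 fell within co-culture, and 15 rose and 7 fell without iMSCs, and the interaction was positive in 24 and negative in 12. Over all genes 39.3% rose and 35.1% fell within co-culture, and 29.1% and 28.3% without iMSCs. In the interaction 31.1% of all genes passed in each direction. Of 16 genes of non-homologous end joining, the break repair route that needs no sister chromatid, 7 rose and 6 fell under LPS and IFN-γ (median 0.15), with TP53BP1, PRKDC and LIG4 at 0.78, 1.19 and -0.58. These shares, 43.8% and 37.5%, lay close to those of all genes. At rest 2 of the 16 rose and 9 fell (median -0.42), with SHLD2, XRCC6 and XRCC5 at -1.0, -0.56 and -0.43. With LPS and IFN-γ 12 of the 16 rose and 3 fell within co-culture, and 2 rose and 4 fell without iMSCs.

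Of 18 nucleotide and base excision repair genes 11 rose and 4 fell under LPS and IFN-γ (median 0.74), and 11 rose and 3 fell at rest (median 0.34). Over all genes 38.4% rose and 36.3% fell under LPS and IFN-γ, and 36.2% and 33.6% at rest. APEX1, UNG and PARP1, which act in base excision repair, rose by 1.66, 2.36 and 2.31 under LPS and IFN-γ, and POLB, NTHL1 and LIG3 rose by 2.09, 2.31 and 0.56 at rest. Of 20 target genes of p53, the factor that ATM and CHEK2 act on, 6 rose and 10 fell with iMSCs under LPS and IFN-γ (median -0.18), and CDKN1A, BTG2 and MDM2 fell by 3.31, 2.29 and 1.07. At rest 9 of them rose and 7 fell (median -0.10). Their summed level was 846 ± 39.2 CPM in M0+LPS+IFN-γ+iMSCs, against 3417 ± 116 CPM in M0+LPS+IFN-γ, and 1942 ± 47.8 CPM in M0+iMSCs, against 2593 ± 66.1 CPM in M0. The 10 proliferation markers all rose under LPS and IFN-γ (median 5.11), with MKI67, BUB1 and PCNA at 6.88, 5.13 and 2.39, and 9 rose at rest (median 4.17). With LPS and IFN-γ alone their median was -0.21, and CCNA2, CCNB1 and MKI67, which had the smallest p, were not called, at -1.32, -0.55 and -0.77 (adjusted p = 0.0898, 0.0995 and 0.112). Within co-culture 9 of the 10 rose with LPS and IFN-γ, and the interaction was positive in 6. Over all genes 39.3% rose within co-culture and 31.1% had a positive interaction.

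Several members share their locus with another gene, and the sources used here do not say whether strand was used in counting, so reads of such pairs may not be separable. Partners on the other strand that averaged more than 100 counts were compared. Under LPS and IFN-γ with iMSCs, MSH6, FANCI, RAD54L, XRCC3, C1orf112, FANCL and FANCA rose, against -0.14 for FBXO11, -0.45 for POLG, -0.20 for LRRC41, -0.77 for KLC1, -0.84 for SCYL3, -0.11 for VRK2 and -0.22 for ZNF276. What shared reads add to the level of a member was not tested. With LPS and IFN-γ within co-culture some partners rose too: VRK2 by 1.04 (adjusted p = 5.56e-09) beside FANCL at 1.81, ZNF276 by 0.56 (adjusted p = 0.000179) beside FANCA at 0.75, and FBXO11 by 0.14 (adjusted p = 0.00873). The interaction was 0.35 for VRK2 (adjusted p = 0.0179) and 0.54 for ZNF276 (adjusted p = 0.00528). DECR1, opposite NBN over 1824 bases, rose by 0.47 where NBN fell, and at rest both rose, DECR1 by 0.63. An lncRNA gene on the strand of BRCA1 stood at -0.59, HSCB, opposite CHEK2, at 0.21 (adjusted p = 0.0663) where CHEK2 rose, and STT3A, which shares 53 bases with CHEK1 on the same strand, at -0.24. FSBP overlaps RAD54B on the same strand over 58576 bases and averaged 5 counts a library, against 17.19 for RAD54B, so the level of RAD54B is uncertain.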

How the data were processed

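RNA-seq was measured in 16 libraries of THP-1 macrophages, 4 in each of 4 groups. The authors deposited 1 table of raw read counts per gene for 60664 genes on GRCh38.p13, per the file headers. The submitters' processing notes name HISAT2, HTSeq and GRCh38 with no roles, and strand use and multi-mapping are not given in the sources used here. Per the labels' protocols, TRIzol was used for the RNA and the VAHTS Universal V6 kit for library building.

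Counts were tested in R 4.3.3 with edgeR 4.0.16: filterByExpr left 15301 genes, and TMM factors, 4 group means and a robust quasi-likelihood fit with 12 residual degrees of freedom followed. Each contrast was adjusted by Benjamini-Hochberg over all genes tested, with a threshold of 0.05. SE is the log2 fold change divided by the root of its F value, which is approximate. Library totals of 17336637 to 24368753 counts set the precision, and the 95% intervals on count ratios cover counting error only. In counts simulated from 13032 genes with the iMSC comparison under LPS and IFN-γ, 62.7% of changes of 0.5, 97% of 1 and 100% of 2 on the log2 scale were called. For the interaction the shares were 14.9%, 94% and 100%. The simulation took levels and spread from the M0 libraries alone and changed only genes above 1 CPM. Pairs of M0 libraries differed by a chi-square of 2.17 to 3.94 per degree of freedom, against 4.38 to 28.4 in M0+iMSCs. These shares may therefore be too high for groups of wider spread and for genes of few counts.

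The members and all gene lists were chosen with earlier results of these data known. All 35 members were to be named, with every library's value for the 2 of each role with the widest gap between group means and for members outside their role's direction. Up to 3 genes of smallest p were to be named from each other list. Same-numbered libraries deviated together in 1 of 24 pairs only (correlation over 0.1), and the main fit used no pairing. Such correlations cannot show whether same-numbered libraries shared a culture or a batch. Alternatives covered the scaling, filter, minimum fold, samples fitted, replicate block, each library left out, DESeq2 1.42.0 and limma-voom (limma 3.58.1). No column of per-sample values was left unused (0 columns). Figures were drawn with matplotlib 3.10.9.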

Additional observations from a re-analysis of the deposited data

Results flagged for a closer look

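In 7 of 140 sets of 4 libraries, 1 library lay far from the other 3 by Dixon's test at its 95% critical value, which is 5.0%, the share that chance gives. RBBP8 in M0+LPS+IFN-γ+iMSCs replicate 4 was at 12.2 CPM, against 18.0 to 18.5 in the others. RAD51AP1 in the same library was at 4.62 CPM, against 6.71 to 7.10. FANCA in M0+LPS+IFN-γ replicate 4 was at 9.57 CPM, against 4.72 to 5.24, and PALB2 in M0+LPS+IFN-γ replicate 1 at 23.8 CPM, against 22 to 22.2. BRCA2 in M0+iMSCs replicate 4 was at 7.78 CPM, against 12.6 to 13.4. In M0 replicate 4, PALB2 was at 21.5 CPM, against 24.7 to 25.1, and FANCB at 0.581 CPM, against 0.210 to 0.250.

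The effect of iMSCs differed between the stimulated and the resting state in 28 members (edgeR interaction term, adjusted p under 0.05, n = 4 libraries a group). Among damage kinases and adaptors the log2 difference was -0.27 for ATM, 1.21 for ATR, 1.05 for CHEK1, 0.95 for CHEK2 and 0.89 for TOPBP1. Among end resection genes it was 0.44 for MRE11, -1.13 for NBN, 1.01 for RAD50, 2.21 for EXO1 and 0.85 for BLM, and among BRCA complex genes 2.12 for BRCA1 and 1.39 for BARD1. Among the recombinase paralogs and cofactors it was 1.07 for RAD51C, 2.52 for XRCC2, 1.80 for XRCC3, 3.16 for RAD54L, 3.61 for RAD54B and 1.81 for C1orf112. In the Fanconi core it was 0.95 for FANCA, 2.81 for FANCB, 0.87 for FANCC, -0.58 for FANCE, 1.35 for FANCG, 1.82 for FANCL and 1.17 for FANCM. In the ID complex it was 0.64 for FANCD2 and 1.87 for FANCI, and for MSH6 it was 0.85.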

How the results depend on the processing

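Of 4859 member values recomputed under the alternatives, 4610 kept their direction and their side of the threshold, 128 lost the call, 70 gained one and 51 turned sign. Of the 51, 48 were not called in either fit, over 18 member comparisons, and 3 were called in at least 1 fit, all under library totals alone: ATM with LPS and IFN-γ alone at -0.25, PALB2 with iMSCs under LPS and IFN-γ at 0.15, and the interaction of ATM at 0.060. The counts that moved by over 1.5 times were mostly small ones. Members lower with LPS and IFN-γ alone (10) became 18 under library totals and 6 with a minimum fold of 1.2, and members higher (3) became 5 with only the groups compared, where 29 members were tested, and 5 without M0+iMSCs replicates 1 and 2. Without the same 2 libraries, an alternative chosen after seeing the data, 7 members were lower at rest in place of 4. Members lower with iMSCs under LPS and IFN-γ (2) became 1 under library totals and 1 with a minimum fold of 1.2, those lower with LPS and IFN-γ within co-culture (3) became 1 with a minimum fold of 1.2, and negative interactions (3) became 1 under library totals. Leaving out any 1 library gave 31 to 32 higher and 2 lower with iMSCs under LPS and IFN-γ, 19 to 23 higher and 4 to 6 lower at rest, 2 to 4 higher and 6 to 12 lower with LPS and IFN-γ alone, 27 to 29 higher and 2 to 4 lower within co-culture, and 23 to 27 positive and 3 negative interactions. Apart from library totals and the minimum fold, the cause of these shifts was not tested. DESeq2 gave 31 higher and 2 lower with iMSCs under LPS and IFN-γ, and limma-voom 32 and 2. Members of few counts, such as RAD54B and FANCB, are limited by depth.

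With the replicate number as a block, 32 members were higher and 2 lower with iMSCs under LPS and IFN-γ, 21 and 4 at rest, 3 and 11 with LPS and IFN-γ alone, and 29 and 3 within co-culture, with 25 positive and 3 negative interactions. Correlations of deviations between same-numbered libraries ran from -0.106 to 0.172, the highest between replicate 4 of M0+iMSCs and replicate 4 of M0+LPS+IFN-γ+iMSCs. Whether same-numbered libraries shared a culture or a batch is not stated.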
